A study of Mus musculus with 10 samples.

Results

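The genes described here encode the SCL/TAL1 transcription factor complex of blood cells. They are Tal1 and its paralog Lyl1, Lmo2, Ldb1, the E protein genes Tcf3 and Tcf12, and the corepressor gene Cbfa2t3. They were taken by symbol, as 7 of the 17404 genes in the count table, by a rule that uses no measured value. RNA was measured in long-term hematopoietic stem cells (LT-HSCs) sorted from mouse fetal livers at E14.5. The 6 KO libraries carry Tnfrsf11aCre; Spi1f/f and the 4 WT libraries carry Tnfrsf11a+/+; Spi1f/f, so Spi1 is floxed on both alleles in every embryo and the Cre allele is what separates the groups. The Cre is expressed from the Tnfrsf11a locus, which is active in macrophage precursors, and the model was built to remove fetal macrophages, so the comparison asks how the RNA of stem cells differs when their macrophage neighbours are reduced.

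TAL1 and LYL1 are basic helix-loop-helix (bHLH) proteins that bind the DNA sequence CANNTG, the E-box, as a dimer with an E protein such as the products of Tcf3 and Tcf12. LMO2, a protein made almost wholly of LIM domains, bridges this dimer to GATA factors, LDB1 joins LMO2 proteins on distant elements into loops, and the product of Cbfa2t3, also called ETO2, recruits histone deacetylases to the complex. The complex is required for the formation of blood and is known in stem cells, erythroid cells and megakaryocytes.

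Depth ranged from 5315435 to 30941726 counts on genes in KO and from 7633446 to 18256010 in WT. Each of the 7 LT-HSC markers examined was detected in both groups, and their levels in CPM (counts scaled to the size of the library) summed to between 495 and 1163 in KO libraries and between 293 and 544 in WT libraries. Mecom, Hlf and Cd34 of these markers passed the test as higher in KO, while Ly6a had a log2 fold change of -0.88 (standard error 0.76) and did not pass. Among 11 macrophage markers Marco passed as lower, with 0 counts in all 6 KO libraries and 3.41 to 14.3 CPM in WT. The log2 fold change was below 0 for 8 of the 11, while Vcam1 (0.586), Cd68 (0.305) and Mrc1 (0.218) were above 0 and did not pass. All 4 calls were lost with the length offset, with Xist as a covariate and without KO 15405, 15406, 15411, 15412 or 15415 or WT 15416. Those of Mecom, Hlf and Cd34 were also lost without WT 15418, that of Hlf without WT 15417 or 15420, and that of Mecom in the fit of transcript sums (highest edgeR adjusted p of the 4 genes, 0.209). Summed macrophage, endothelial, megakaryocyte, hepatoblast and granulocyte markers, as well as the 5 of 10 erythroblast markers analysed here, overlapped between the groups, but differed widely among libraries. Endothelial markers, for example, summed to 272 CPM in WT 15416 and to 6932 CPM in KO 15409. Mrc1 alone gave 714.5 of the 921 CPM of macrophage markers in KO 15409, but 3.11 of 91.5 CPM in WT 15416. The overlap of the macrophage sum therefore says little about the macrophage markers of lower level. Mrc1 and the endothelial sum were both highest in KO 15409 and lowest in WT 15416. Which cells gave the Mrc1 RNA was not tested. In bulk RNA, fewer cells of a type and less RNA per cell cannot be told apart. Spi1 itself, which the Cre is meant to remove in macrophage precursors and not in LT-HSCs, was at 60.6 ± 31.1 CPM in KO (SD, n = 6) against 24.4 ± 21.3 CPM in WT (SD, n = 4), with an edgeR adjusted p of 0.337, so its level does not check the genotype labels here.

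Some members vary in their bHLH domain, splice form or start site, and the sequences below show the alternatives whose use is measured further on. The bHLH domain of Tcf3 is encoded by either of 2 mutually exclusive exons, the upstream one giving the protein E12 and the downstream one E47. They lie on the minus strand of GRCm38, at chr10:80412827-80413062 and chr10:80410398-80410624, and are shown in transcript direction, as cut from Gencode vM21 transcripts. Aligned end to end, 175 of 236 positions (74.2%) are identical.
Tcf3 upstream exon, E12: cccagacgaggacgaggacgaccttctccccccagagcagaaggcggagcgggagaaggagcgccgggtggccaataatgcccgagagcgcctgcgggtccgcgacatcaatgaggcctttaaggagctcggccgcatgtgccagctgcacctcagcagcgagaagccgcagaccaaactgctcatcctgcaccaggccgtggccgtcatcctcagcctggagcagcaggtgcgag
Tcf3 downstream exon, E47: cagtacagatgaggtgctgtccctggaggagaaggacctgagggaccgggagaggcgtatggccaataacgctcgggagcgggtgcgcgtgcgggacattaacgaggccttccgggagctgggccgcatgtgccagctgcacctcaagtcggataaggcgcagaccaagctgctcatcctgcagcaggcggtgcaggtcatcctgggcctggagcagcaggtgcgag

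The Ldb1 transcripts differ in exon 10, on the minus strand of GRCm38, which ends in some models 6 bases later. The longer exon lies at chr19:46034032-46034180 and the shorter at chr19:46034038-46034180, and the lines below show the last 24 shared bases of the exon and the first 24 bases of the next one, with the 6 extra bases in capitals. The difference keeps the reading frame.
Ldb1 longer exon, as in Ldb1-201 and Ldb1-208: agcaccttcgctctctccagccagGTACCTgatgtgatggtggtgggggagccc
Ldb1 shorter exon, as in Ldb1-206: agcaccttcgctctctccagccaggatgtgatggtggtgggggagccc

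The RefSeq promoter table (GRCm38.p6, 250 bases before to 50 after each start) holds 12 windows for 6 of the 7 genes. The windows of the distal Tal1 start and of both Cbfa2t3 starts are printed because the transcripts from these starts made up most of the RNA of those genes. Capitals mark the E-box CANNTG, the GATA factor motif GATAA and the ETS factor motif GGAAG, each on either strand, and no matches overlap.
Tal1 distal start, chr4:115056176-115056475, plus strand: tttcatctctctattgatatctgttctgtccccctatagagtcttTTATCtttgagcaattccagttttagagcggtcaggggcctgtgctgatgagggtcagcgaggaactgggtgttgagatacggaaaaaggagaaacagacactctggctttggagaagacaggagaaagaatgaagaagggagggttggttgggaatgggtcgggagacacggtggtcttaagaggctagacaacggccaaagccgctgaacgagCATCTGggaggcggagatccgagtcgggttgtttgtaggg
Cbfa2t3 distal start, chr8:122699060-122699359, minus strand: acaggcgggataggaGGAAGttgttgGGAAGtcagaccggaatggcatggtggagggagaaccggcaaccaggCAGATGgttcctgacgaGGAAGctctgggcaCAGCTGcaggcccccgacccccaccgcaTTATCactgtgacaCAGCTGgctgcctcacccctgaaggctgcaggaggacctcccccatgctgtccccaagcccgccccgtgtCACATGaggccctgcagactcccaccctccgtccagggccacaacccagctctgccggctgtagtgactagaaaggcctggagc
Cbfa2t3 proximal start, chr8:122678126-122678425, minus strand: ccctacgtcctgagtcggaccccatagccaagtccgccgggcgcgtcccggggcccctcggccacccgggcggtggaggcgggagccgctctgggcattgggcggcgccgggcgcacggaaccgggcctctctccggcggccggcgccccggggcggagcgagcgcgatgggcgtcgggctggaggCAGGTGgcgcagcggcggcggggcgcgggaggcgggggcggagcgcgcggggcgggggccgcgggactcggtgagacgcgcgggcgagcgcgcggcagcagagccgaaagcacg

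The distal Cbfa2t3 window holds 4 E-boxes, 1 GATAA and 3 GGAAG matches, whereas the proximal window, with 81.7% G and C, holds 1 E-box and neither of the other motifs. Of the 12 windows of the members, 9 hold an E-box, 3 hold GATAA and 8 hold GGAAG. Among all 32851 windows of this length, the shares are 72.3%, 25.4% and 71.4%. The E-box and GATA composites CTGNNNNNNNGATAA and CTGNNNNNNNNGATAA match none of the 12 windows and 0.901% and 0.618% of all windows. A match is a description of the letters and not a binding site.

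None of the 7 genes differed between KO and WT at an adjusted p below 0.1, where 3.99% of the 16725 genes tested did (edgeR quasi-likelihood test, Benjamini-Hochberg adjustment). Tal1 and Tcf12, 2 of 7, had an unadjusted p below 0.05, which 18.8% of all genes had. For none of the 7 did the libraries of one group all lie above or below those of the other, a pattern seen upward in 2.88% and downward in 3.48% of all genes. The log2 fold change, KO over WT, was above 0 for 4 of the 7, as it was for 53.1% of all genes. DESeq2 with the study's settings also called 0 of the 7 genes, with 1 of them at an unadjusted p below 0.05.

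**Figure D1:**
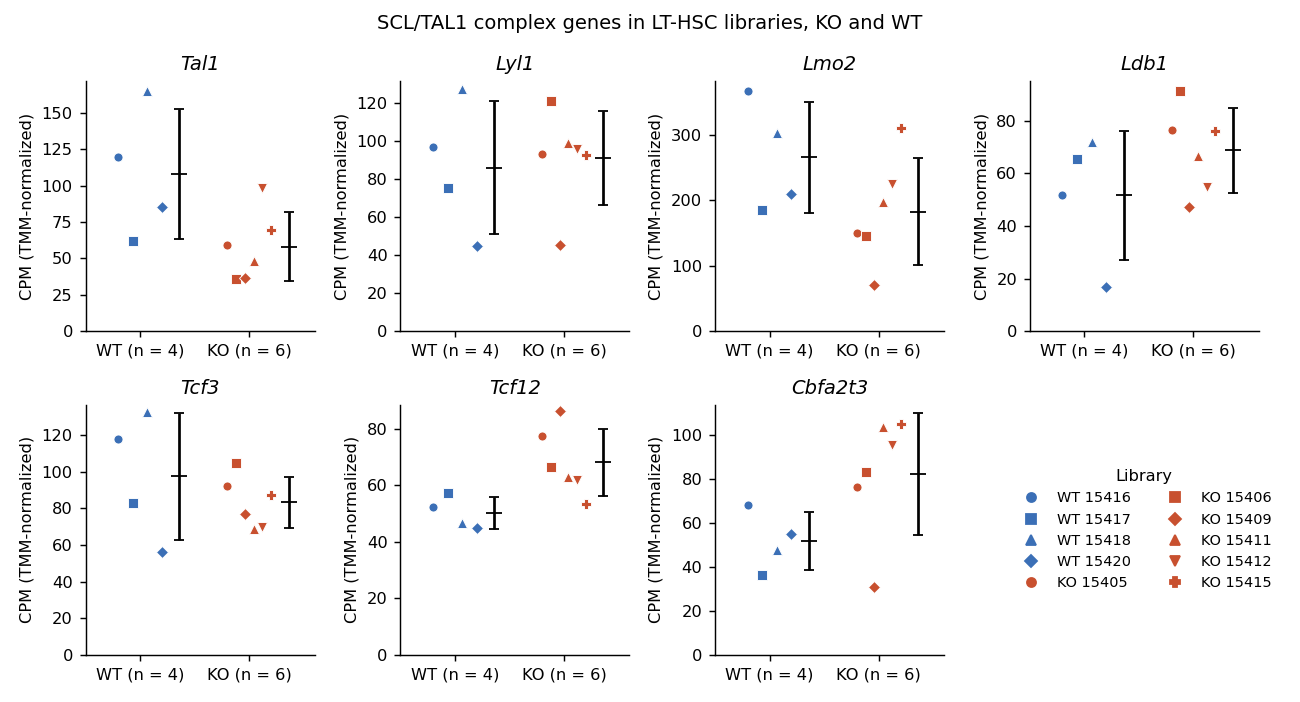
TMM-normalized CPM of the 7 genes in each library, WT in blue and KO in red, with a symbol for each library and the mean ± SD beside each group. Tal1 lies lower in most KO libraries and Tcf12 and Cbfa2t3 higher, but every panel has overlap between the groups.

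Tal1 (chr4:115056426-115071755, plus strand, GRCm38) encodes the founding bHLH factor of the complex. It measured 119.7, 62.3, 165 and 85.5 CPM in WT 15416, 15417, 15418 and 15420, while the lowest, median and highest KO libraries had 35.7, 53.7 and 98.5 CPM. Of the 6 KO libraries, 4 were below the lowest WT library and 0 were above the WT median. The means were 58.0 ± 23.7 CPM in KO (SD, n = 6) against 108 ± 44.8 CPM in WT (SD, n = 4), a log2 fold change of -0.90 with a standard error of 0.33 and an edgeR adjusted p of 0.172. Tal1 is also abundant in erythroid cells, and the libraries highest in Tal1 within each group were those with the most erythroblast RNA. WT 15418, which had the most Tal1, had 5907 CPM summed over the 5 erythroblast markers against 114 to 857 CPM in the other WT libraries. KO 15412 and KO 15415, the KO libraries with the most Tal1 at 98.5 and 69.8 CPM, had 918 and 2026 CPM of these markers. The other KO libraries had 135 to 282 CPM. The other WT libraries did not all follow this order. WT 15420 had the least erythroblast marker RNA of all libraries (114 CPM) but more Tal1 than WT 15417, which had 553 CPM. WT 15416, at 119.7 CPM of Tal1, had 747 CPM of Klf1 in its sum of 857 CPM. Its Alas2 and Slc4a1 were at 2.81 and 2.12 CPM. The log2 fold change of Tal1 stayed below 0 in all 18 alternative fits. It ranged from -1.19 with Xist as a covariate to -0.56 without WT 15418 (edgeR adjusted p = 0.363). Without KO 15412, the KO library with the most Tal1, it was -1.09. The part of erythroid RNA in the difference was not tested.

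Lyl1 (chr8:84701457-84704715, plus strand), the paralog of Tal1 that can serve in its place in adult stem cells, had almost equal means. It was 91.0 ± 24.7 CPM in KO (SD, n = 6) against 86.0 ± 34.8 CPM in WT (SD, n = 4), a log2 fold change of 0.08 with a standard error of 0.30 (edgeR adjusted p = 0.917). In WT it ranged from 44.7 CPM in WT 15420 to 127 CPM in WT 15418. In KO, 5 libraries lay between 92.5 and 121 CPM and KO 15409 stood apart at 45.5 CPM. The sign of the difference turned without KO 15406 (-0.02) and without WT 15420 (-0.13), so no direction can be read for this gene.

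Lmo2 (chr2:103957986-103981878, plus strand), the bridging LIM-only factor, measured 367, 184, 302 and 209 CPM in WT 15416, 15417, 15418 and 15420. The KO libraries had 71.1 CPM at the lowest, 173 at the median and 309.5 at the highest, and 3 of the 6 were below the lowest WT library. The mean levels were 183 ± 81.2 CPM (SD, n = 6) and 266 ± 84.6 CPM (SD, n = 4), a log2 fold change of -0.54 with a standard error of 0.34 (edgeR adjusted p = 0.414). The value stayed below 0 in all 18 alternative fits, between -0.86 with Xist as a covariate and -0.34 without WT 15416.

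Ldb1 (chr19:46031570-46045214, minus strand), which dimerizes and so joins LMO2-bound elements, measured 51.9, 65.4, 72.0 and 17.0 CPM in WT 15416, 15417, 15418 and 15420. WT 15420 was far below the others and held 120 Ldb1 counts. KO libraries ranged from 47.4 to 91.4 CPM with a median of 71.2. The log2 fold change was 0.41 with a standard error of 0.34 (edgeR adjusted p = 0.561), and the value was 0.12 without WT 15420 and 0.66 without WT 15418.

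The log2 fold changes of the E protein genes had opposite signs. Tcf3 (chr10:80409514-80433647, minus strand) was at 83.2 ± 14.1 CPM in KO (SD, n = 6) against 97.3 ± 34.5 CPM in WT (SD, n = 4), with a log2 fold change of -0.23 and a standard error of 0.24 (edgeR adjusted p = 0.661). The WT libraries spread from 56.0 to 133 CPM and held the whole KO range, 68.6 to 105 CPM, inside theirs. Without WT 15418 the log2 fold change of Tcf3 was 0.01.

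Tcf12 (chr9:71842688-72111871, minus strand), also known as HEB, was the most even member in WT, with 52.3, 57.1, 46.4 and 44.9 CPM in WT 15416, 15417, 15418 and 15420. KO libraries had 53.2 CPM at the lowest, 64.8 at the median and 86.3 at the highest, with 5 of 6 above the highest WT library and all 6 above the WT median. The means were 68.0 ± 11.9 CPM in KO (SD, n = 6) against 50.2 ± 5.60 CPM in WT (SD, n = 4). The log2 fold change was 0.44 with a standard error of 0.19 and an edgeR adjusted p of 0.235. With the offset for transcript length the log2 fold change was 0.22, with an unadjusted edgeR p of 0.268. KO 15409, the highest library for Tcf12, was the lowest KO library for Lyl1, Lmo2, Ldb1 and Cbfa2t3.

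Cbfa2t3 (chr8:122625141-122699109, minus strand) had the highest log2 fold change of the 7, with 1 KO library against it. WT 15416, 15417, 15418 and 15420 measured 68.0, 36.6, 47.8 and 55.2 CPM, and KO 15405, 15406, 15411, 15412 and 15415 measured 76.2, 83.0, 103.5, 95.2 and 105 CPM, all 5 above the highest WT library. KO 15409, at 30.98 CPM, was below the lowest WT library. Over all 10 libraries the log2 fold change was 0.67 with a standard error of 0.31 (edgeR adjusted p = 0.276), and without KO 15409 it was 0.83 with an adjusted p of 0.0736, past the threshold. KO 15409 also had the least LT-HSC marker RNA of the KO libraries (495 CPM, against 714 to 1163) and the most endothelial marker RNA of all (6932 CPM). Its macrophage sum (921 CPM, mostly Mrc1) was also the highest of all libraries. Its megakaryocyte (272 CPM, against 555 to 3952), erythroblast (135 CPM) and granulocyte (10.7 CPM) marker sums were the lowest of the KO libraries. WT 15416, the WT library with the most Cbfa2t3, had still lower megakaryocyte (268 CPM) and granulocyte (6.07 CPM) sums, but 857 CPM of erythroblast markers. The part of the marker differences of KO 15409 in its low Cbfa2t3 value was not tested.

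**Figure D2:**
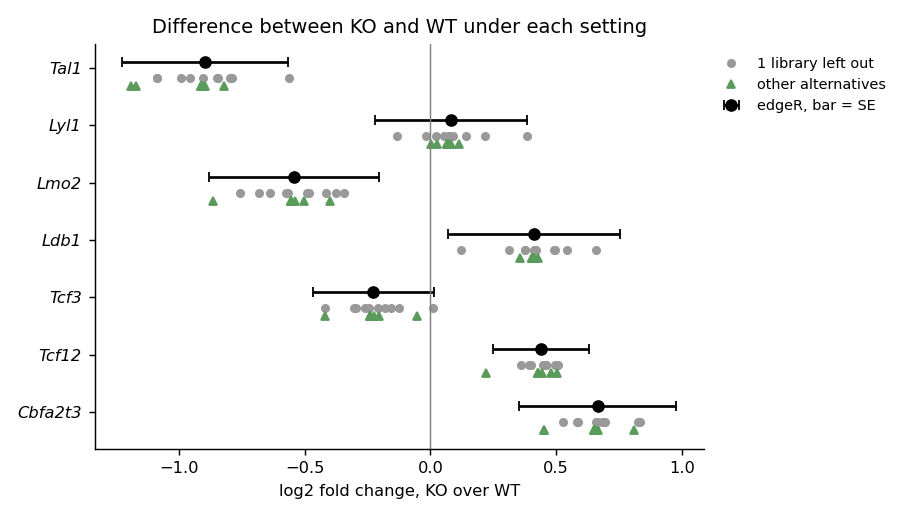
Log2 fold change, KO over WT, of each gene with its standard error (black), after leaving out each library (grey circles) and under 8 other fits (green triangles). Tal1 and Lmo2 stay below 0 and Ldb1, Tcf12 and Cbfa2t3 above 0 in all of them, while Lyl1 and Tcf3 lie on both sides.

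Because Tal1 and Lmo2 lay lower and Cbfa2t3 higher in KO, the balance between members was also read within each library, where the scaling of the library cancels. This was done after the values had been seen and is a description without a test. The ratio of Tal1 to Cbfa2t3, each in CPM plus 0.5, was 1.75, 1.69, 3.43 and 1.54 in WT 15416, 15417, 15418 and 15420, and 0.434 at the lowest, 0.723 at the median and 1.19 at the highest in KO. The ratio of Lmo2 to Cbfa2t3 was 5.36, 4.99, 6.28 and 3.76 in the WT libraries and 1.74, 2.11 and 2.94 at the lowest, median and highest in KO. The groups did not overlap for either ratio, and the KO library nearest to WT was KO 15409 for Tal1 to Cbfa2t3 and KO 15415 for Lmo2 to Cbfa2t3.

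These were 2 of the 21 pairs of members, in CPM as in TPM, a unit that also accounts for transcript length. Among all 45072765 pairs of the 9495 genes with a mean of at least 10 CPM, 6.30% gave ratios that did not overlap, so the number of such pairs is near what the whole table shows. The count was 2 to 4 when any 1 library other than WT 15417 was left out, and 8 without WT 15417. The ratio of Tal1 to Lyl1, the bHLH paralogs, ranged from 0.298 to 1.03 over KO libraries and from 0.827 to 1.90 over WT libraries, with overlap.

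**Figure D3:**
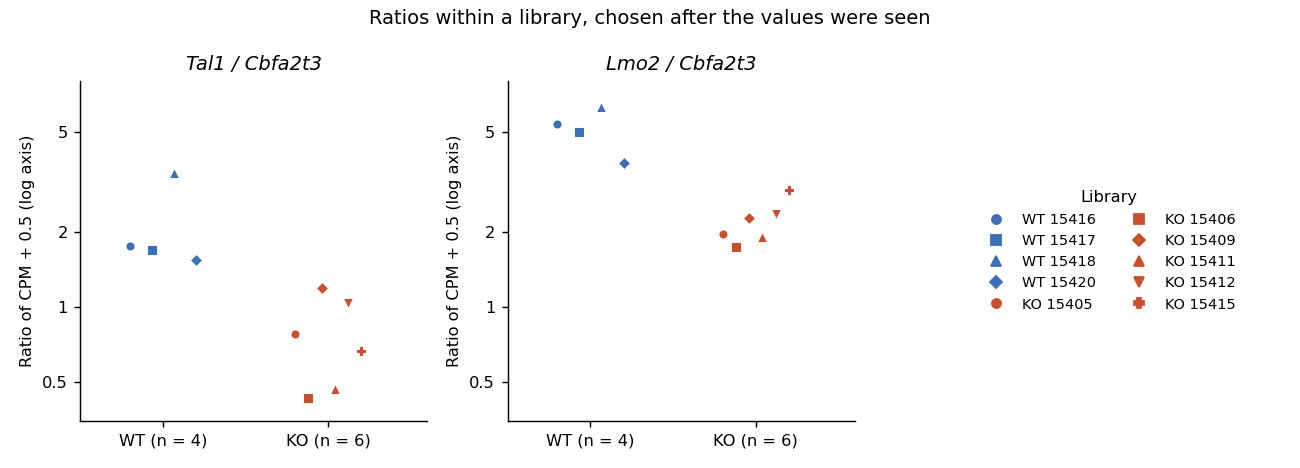
Ratio of Tal1 to Cbfa2t3 and of Lmo2 to Cbfa2t3 in each library, both in CPM plus 0.5 on a log axis. All 6 KO libraries lie below all 4 WT libraries in both panels.

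For levels between genes, TPM values were used, which kallisto scales for transcript length. Over all 10 libraries, mean TPM was 141 for Lmo2, 49.5 for Lyl1, 39.1 for Tcf3, 33.6 for Ldb1, 17.0 for Tal1, 15.03 for Tcf12 and 12.4 for Cbfa2t3. Lmo2 had the highest TPM of the 7 in all 10 libraries, from 56.4 to 221, which placed it at the 89.6th to 97.8th percentile of genes above 0 TPM. Lyl1 exceeded Tcf3 in TPM in 9 of 10 libraries. Below that, the order was not fixed, since Tcf3 exceeded Ldb1 in 7 libraries, Ldb1 exceeded Tal1 in 7, Tal1 exceeded Tcf12 in 6 and Tcf12 exceeded Cbfa2t3 in 7. Tal1 had a higher TPM than Tcf12 in all 4 WT libraries and in 2 of 6 KO libraries, and Ldb1 a higher TPM than Tal1 in 1 of 4 WT and 6 of 6 KO libraries. Of the bHLH paralogs, Lyl1 had more TPM than Tal1 in every library, with Tal1 at 0.128 to 0.439 of Lyl1 in KO and 0.345 to 0.805 in WT.

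TPM was not used to compare the groups, because the median gene had a log2 TPM ratio of 0.42 between KO and WT, against 0.06 for the fitted log2 fold change. The ratio of mean TPM, KO over WT, is 0.41 on the log2 scale for Tcf3, almost the shift of the median gene, although its fitted log2 fold change is below 0.

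**Figure D4:**
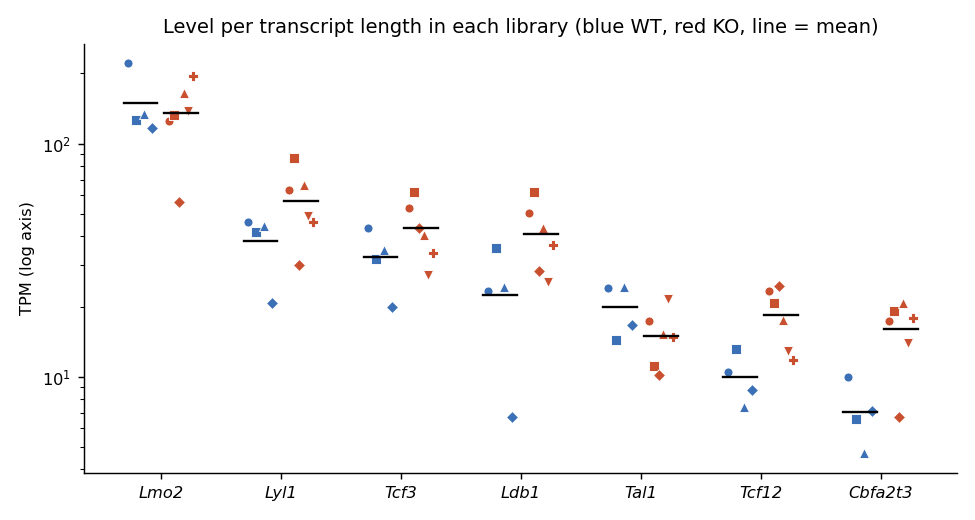
TPM of the 7 genes in each library on a log axis, in order of mean TPM, with WT in blue, KO in red and a line at each group mean. Lmo2 lies highest in all 10 libraries and the 3 genes of lowest mean overlap.

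The transcript tables hold 63 isoforms of the 7 genes, and 12 isoforms with a mean share of at least 10% of their gene's TPM were compared by two-sided exact permutation tests. None passed an adjusted p of 0.1, and 1 had an unadjusted p below 0.05, where the smallest p that 210 splits allow is 0.00476. Tal1 RNA came mainly from the distal start printed above, with Tal1-201 at 86.3 to 100% of TPM in KO and 96.8 to 99.5% in WT. Lmo2-208, also from the distal start of its gene, held 82.6 to 95.1% in KO and 86.4 to 96.1% in WT. Cbfa2t3 used both starts in each library, and Cbfa2t3-203 from the distal start held 55.2 ± 8.64% of TPM (SD, n = 6) in KO and 61.0 ± 9.25% (SD, n = 4) in WT.

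Among coding Tcf3 transcripts with either bHLH exon, the E12 exon was in 13.3 ± 3.53% of TPM (SD, n = 6) in KO and 18.4 ± 7.04% (SD, n = 4) in WT, so the E47 exon was in the larger part in every library. The shares overlapped, with 10.3 to 18.7% in KO and 10.2 to 27.0% in WT. For Tcf12, the model with the largest share of TPM was Tcf12-220, annotated as a target of nonsense-mediated decay. It held 27.2 to 54.8% of TPM in KO and 36.7 to 84.8% in WT. The split of reads among the 21 Tcf12 models was not tested and is uncertain.

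The isoforms of Ldb1 varied widely between libraries. Ldb1-206, with the shorter exon 10, held 9.59, 5.80 and 12.6% of Ldb1 TPM in WT 15416, 15417 and 15418, but 82.3% in WT 15420, and 22.8 to 47.5% in KO. Ldb1-208, with the longer exon 10 and nearly the same start, held 40.1, 41.0, 30.0 and 17.7% in WT 15416, 15417, 15418 and 15420. In KO it held 0.00267% in KO 15405 and 10.3 to 18.5% in the others. Ldb1-201, also with the longer exon 10, held 46.8, 38.6, 42.0 and 0% in the same WT libraries and 32.4 to 56.3% in KO. The difference of Ldb1-208 was -19.4 percentage points (exact permutation p = 0.0143, adjusted p = 0.171 over 12 isoforms). Without WT 15420, the library with 120 Ldb1 counts, Ldb1-206 was 24.1 points higher and Ldb1-208 24.2 points lower in KO. Both then had an exact permutation p of 0.0119, the smallest that 84 splits allow, and an adjusted p of 0.0714. These models differ by the 6 bases printed above and in how far their ends reach, and single-end reads of other parts do not tell them apart.

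**Figure D5:**
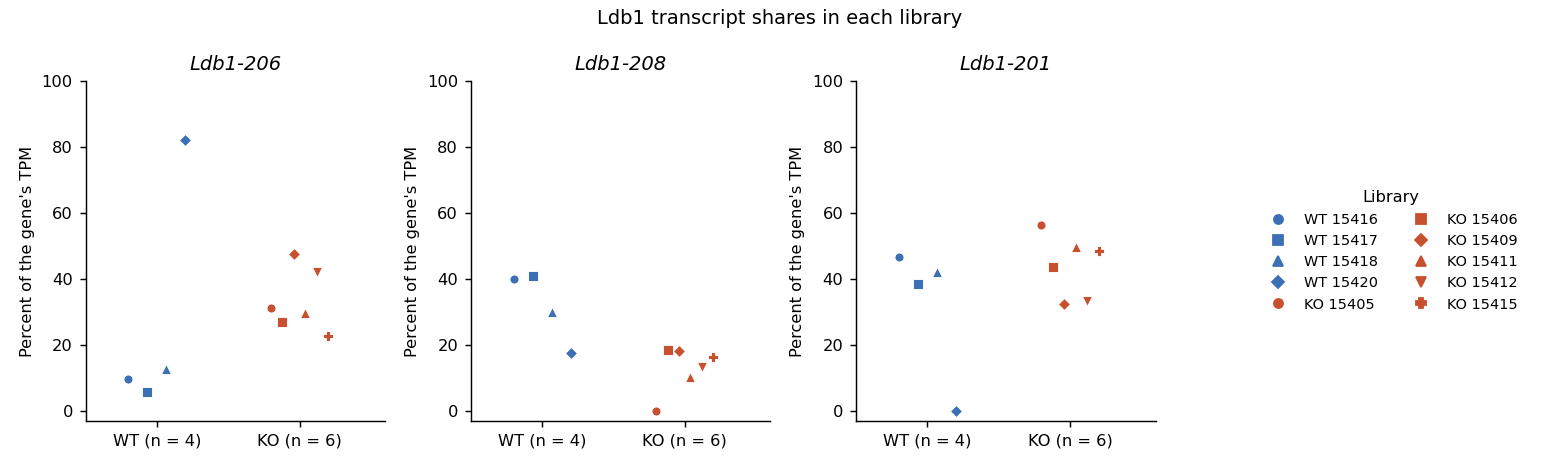
Share of Ldb1 TPM on Ldb1-206 (shorter exon 10), Ldb1-208 and Ldb1-201 (longer exon 10) in each library, WT in blue and KO in red. WT 15420 lies at 82.3% for Ldb1-206, above all KO libraries, while the other 3 WT libraries lie below them.

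Partners, inhibitors, cofactors and targets of the complex, 42 genes tested in 5 lists, gave 1 gene past the threshold as higher in KO and 0 as lower, where 1.32% and 2.67% of all genes were. The 1 gene was Mef2c, a transcription factor of lymphoid and megakaryocytic cells listed as a target. It was at 201 ± 21.4 CPM in KO (SD, n = 6) against 94.0 ± 30.4 CPM in WT (SD, n = 4), with every KO library above every WT library, which held for 2.88% of all genes. Its log2 fold change was 1.10 with a standard error of 0.23 (edgeR adjusted p = 0.0824). The call was lost with the length offset, with Xist as a covariate and without KO 15405, 15406, 15411, 15412 or 15415 or WT 15416, with adjusted p from 0.104 to 0.205. The other gene of the 42 without overlap, named for that after its values were seen, was Ssbp3, which stabilizes LDB1, at 80.6 ± 8.54 CPM in KO (SD, n = 6) against 102 ± 8.02 CPM in WT (SD, n = 4). All its KO libraries were below all WT libraries, as for 3.48% of all genes, so 2 of 42 is near the share in the whole table. Its log2 fold change was -0.35 with a standard error of 0.16 (edgeR adjusted p = 0.256). DESeq2 with the study's settings called Mef2c and Gata2 higher and Klf1 lower among the 42. Of all 16725 genes it called 585 higher and 551 lower, so 3 of 42 is near the share in the whole table. In edgeR, Gata2 had a log2 fold change of 1.27 (adjusted p = 0.1135) and Klf1 of -1.995 (adjusted p = 0.1014).

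Of 7 LIM and looping partners tested, 0 passed in edgeR and 2 had an unadjusted p below 0.05. The most abundant were Rlim, a ubiquitin ligase for LIM cofactors, with a log2 fold change of 0.61 (standard error 0.22), and Ssbp2, which also stabilizes LDB1, with 0.31 (standard error 0.42). Of 5 E protein partners and inhibitors, 0 passed in edgeR and 1 had an unadjusted p below 0.05. The inhibitors Id2 and Id3, which trap E proteins in dimers that cannot bind DNA, had log2 fold changes of -0.49 (standard error 0.41) and -0.09 (standard error 0.42). Summed TPM of Id1 to Id4 was 2.21 to 3.51 times that of Tcf3, Tcf4 and Tcf12 in KO and 1.80 to 7.32 times in WT.

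Of 14 corepressors and coactivators, 0 passed in edgeR and 3 had an unadjusted p below 0.05, and the most abundant, Hdac1 and Ncor1, which ETO2 proteins recruit, had log2 fold changes of -0.01 (standard error 0.17) and 0.21 (standard error 0.17). Of 6 DNA-binding partners, 0 passed in edgeR, although 4 had an unadjusted p below 0.05, as did 4 of 12 targets. Over the 42 genes, 13 had such a p, against 18.8% of all genes tested. Gata1, the GATA factor of erythroid cells, was at 87.1 ± 55.2 CPM in KO (SD, n = 6) against 223 ± 161 CPM in WT (SD, n = 4), and Fli1, an ETS factor of stem cells and megakaryocytes, at 137 ± 39.5 and 73.8 ± 45.7 CPM. Their edgeR adjusted p-values were 0.266 and 0.237. Of 12 targets, the erythroid genes Slc4a1 and Alas2 were the most abundant. Within WT they ranged from 2.12 to 2063 and from 2.81 to 1808 CPM. The top of each range was in WT 15418, as for Tal1, and the bottom in WT 15416, where Tal1 was at 119.7 CPM.

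The genes whose log2 CPM varied most like that of each member over the 10 libraries, among 9494 genes, were taken by Pearson correlation as a description. For Tal1 they were Tspan8 (r = 0.96) and Nxpe2 (0.94), and for Lyl1 they were Acy1 (0.98) and Relt (0.93). For Lmo2 they were Prxl2a (0.98) and Mfsd2b (0.96), for Ldb1 Cln6 and Atp13a1 (both 0.99), and for Tcf3 Dele1 (0.96) and Ogfod2 (0.95). For Tcf12 they were Birc6 (0.92) and Cdc7 (0.91). For Cbfa2t3 they were Fut8 (0.98) and Runx1 (0.96), the latter encoding a DNA-binding partner of the complex. Runx1 shared with Cbfa2t3 a KO 15409 value, 7.20 CPM, below the lowest WT library (15.3 CPM), while 5 of 6 KO libraries were above the highest (27.0 CPM). The 10 points share their libraries, and with them any difference in depth or cell make-up.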

How the data were processed

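LT-HSCs were sorted from E14.5 fetal livers, amplified by SmartSeq2 and sequenced as single-end reads. The submitters' processing notes name bcl2fastq 2.20 and kallisto 0.44.0. The authors quantified Gencode vM16 transcripts (GRCm38) and deposited, for each library, estimated counts and TPM per transcript, and a gene table of whole-number counts, not normalized, which for the 7 genes differed by about 1 count from the sums of the deposited estimated counts. Positions and transcript models are from Gencode vM21 of the same build. A gene was tested where its counts summed to at least 11, with edgeR 4.0.16 (R 4.3.3) after TMM scaling, by the robust quasi-likelihood test, at the study's adjusted p of 0.1. Standard errors were derived from the F statistic. Isoform shares of TPM were compared by exact permutation over 210 splits. DESeq2 1.42.0, other filters and offsets, Xist as a covariate and leaving out each library were alternatives.

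The members, gene lists and tests were chosen with earlier results of these data known. The genes named are the members, Spi1, from each list those past the threshold and the 2 of highest mean CPM, and the 2 genes most like each member (log2 CPM with a prior count of 2). Single cell type markers are named from their lists. Gata2 and Klf1 were later choices, named because DESeq2 at the study's settings called them. Ssbp3 and the pairs of members were chosen after their values had been seen. The script was tested on simulated data. The labels do not tie libraries to litters, so p-values measure the spread between these libraries. Reads carry no molecular identifiers. Python 3.11.15, pandas 2.3.3, NumPy 2.4.6 and matplotlib 3.10.9 were used.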

Additional observations from a re-analysis of the deposited data

Results flagged for a closer look

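In groups of 4 or 6 libraries, a value was picked out where its gap to the nearest other library took up most of the range of its group. This was the case for 5 of 48 groups of values. For normally distributed values, chance would pick out about 1 in 20, or 2.4. The groups share libraries and genes, so 5 against 2.4 is not a test. KO 15409 had a log2 CPM of 5.51 for Lyl1, where the other KO libraries had 6.53 to 6.92, and of 4.96 for Cbfa2t3, where the others had 6.25 to 6.71. The same library had the highest share of the proximal-start isoform Cbfa2t3-201 in KO, 52.0% of TPM, against 27.3 to 34.5% in the others. WT 15420 had 82.3% of Ldb1 TPM on Ldb1-206, against 5.80 to 12.6% in the other WT libraries. WT 15418 had the lowest TPM ratio of Cbfa2t3 to Tal1 in WT, 0.193 against 0.413 to 0.456.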

How the results depend on the processing

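The number of members past the threshold was 0 and became 1 with DESeq2 without a fold-change threshold (Tal1, log2 fold change -0.91, adjusted p = 0.0974) and 1 without KO 15409 (Cbfa2t3), in a range of 0 to 1 over the libraries left out. Signs turned for Lyl1 without KO 15406 (-0.02) or WT 15420 (-0.13) and for Tcf3 without WT 15418 (0.009). With a library left out, Lyl1 ranged from -0.133 to 0.383 and Tcf3 from -0.418 to 0.009. Pathway genes past the threshold, 1 in all libraries, were 3 with DESeq2 at the study's settings, 6 without its fold-change threshold, 3 with filterByExpr, 0 with the length offset, 0 with Xist and 0 at an adjusted p below 0.05, and 0 to 4 with a library left out. They were 0 without KO 15405, 15406, 15411, 15412 or 15415 or WT 15416, 4 without KO 15409, 3 without WT 15417 or 15420 and 2 without WT 15418. Over all genes, 221 were higher and 446 lower. DESeq2 gave 585 higher and 551 lower at the study's settings, and 998 higher and 1145 lower without the fold-change threshold. The length offset, Xist and an adjusted p below 0.05 each gave 0 higher and 0 lower in edgeR, with 1084 and 1669 genes at an unadjusted p below 0.05 for the length offset, 1088 and 1779 for Xist and 1438 and 1701 for the fit of all libraries. Leaving out a library gave 0 to 405 higher and 0 to 598 lower, with 0 and 0 without KO 15405, 15406, 15412 or 15415 or WT 15416, 1 and 0 without KO 15411, and 405 and 598 without KO 15409.

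Isoforms past the threshold were 0, or 2 without WT 15420, in a range of 0 to 2. Shares that turned sign, in percentage points, were Tcf3-205 from estimated counts (2.08), on coding transcripts (3.23) and without WT 15416 (1.91) or 15420 (1.45), Tcf12-221 on coding transcripts (-0.54), Lmo2-208 without KO 15406 (1.05), KO 15415 (0.26) or WT 15420 (1.69), and Ldb1-206 without WT 15416 (-0.13) or 15417 (-1.39). With a library left out, these differences ranged from -1.56 to 1.69 for Lmo2-208, from -10.8 to 1.91 for Tcf3-205 and from -1.39 to 24.1 for Ldb1-206. Lmo2 had the highest level in every library under every alternative for levels, but the order of the others moved. By counts per kilobase, the mean rank of Cbfa2t3 was 4.8 in place of 6.3, ahead of Tal1 (5.4) and Tcf12 (5.9), that of Lyl1 2.5 in place of 2.1 and that of Tcf3 4.0 in place of 3.2. On coding transcripts Tcf12 ranked 6.9 in place of 5.8, the lowest of the 7. No paired analysis was possible because the groups share no replicate number. The cause of these changes was not tested. Few counts limit the precision of Ldb1 in WT 15420 (120 counts, 17.0 CPM) and of Tal1 in KO 15406 (226 counts).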
